A study of Mus musculus with 4 samples.

Results

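The aryl hydrocarbon receptor (AHR), its repressor and a set of its known target genes were examined in ECs from post-PNX and sham-operated mouse lungs. The set holds 8 genes, Ahr, Ahrr, Tiparp, Cyp1a1, Cyp1a2, Cyp1b1, Nqo1 and Aldh3a1, out of 24063 gene symbols in the deposited tables. The genes were found by symbol. They are well-known AHR genes, but they were also chosen by the difference in their read counts between post-PNX and sham ECs, which was known beforehand, so the differences of these 8 genes are given as a description and without p-values. The mice were C57BL6 (C57BL6J in the study's methods), 8 weeks old and described as male. The post-PNX group had the left lung removed 7 days before the cells were taken, while the sham group underwent thoracotomy alone, and no other agent or allele separates the groups. Each group had 2 libraries, each made from the pooled cells of 2 mice, so a library is a mixture of animals. Cells were selected from digested lung with an antibody to CD31 and magnetic beads.

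AHR is a ligand-activated transcription factor of the bHLH-PAS family. Without ligand it sits in the cytoplasm with the chaperone HSP90. With ligand, such as dioxins, polycyclic aromatic compounds or tryptophan products, it moves to the nucleus, pairs with ARNT and binds DNA at dioxin response elements. Cyp1a1 is the classical target gene and its RNA is widely used as a reading of AHR activity, also in lung endothelium. Ahrr and Tiparp are targets that act back on the receptor, Ahrr by competing for ARNT and Tiparp by ADP-ribosylation of AHR.

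In each library, reads counted on 1 transcript per gene came to between 41367438 and 50952879. A count of 3, taken as the floor of detection, corresponded to between 0.0589 and 0.0725 CPM, and this floor covers counting error only. Counts were normalized by the TMM method of edgeR and scaled to the mean library size. The endothelial markers were present at high levels, with a Pecam1 (CD31) level between 90191 and 91116 normalized counts in the 4 libraries and a Cdh5 (VE-cadherin) level between 93964 and 110681. The leukocyte gene Ptprc (CD45) was also present, at between 11422 and 11665. All 4 libraries went against the label of male mice. Xist, the RNA of the inactive X chromosome, lay between 31872 and 33792 normalized counts, and 0 of 44 genes of chromosome Y had a read in any library. Both groups were alike in this respect. Nothing states whether the mice of different libraries were operated on separately, so errors and p-values measure the spread between these libraries alone. That spread was not far above counting error. The mean chi-square per gene was 1.74 between the sham libraries and 1.51 between the post-PNX libraries, against 128 between the first libraries of the 2 groups. How much variation between animals the small p-values take in is therefore not known. With 2 against 2 libraries an exact permutation test of a single value cannot go below p = 0.333 (two-sided).

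The DNA just before the start of the genes is shown for the pair of Cyp1 genes that differed in opposite directions and for Ahrr. Of the genes searched, only Ahrr had the longer form of the motif in this stretch. RefSeq promoters (build GRCm38.p6, the sequence of mm10) were found for 6 of the 8 genes, and not for Ahr and Aldh3a1. The 250 bases before the start were searched on both strands for GCGTG, the core of the dioxin response element, and for TNGCGTG, which contains it. The core was present for 4 of the 6 genes and in 28.2% of all 32851 promoters of the same length. The longer form was present for 1 of the 6 and in 4.1% of all promoters. The sequence of Cyp1a1 lies before the inner of its 2 transcript starts. Capitals mark the core on either strand (CACGC is the core on the other strand).
Cyp1a1, chr9:57697363-57697612, plus strand: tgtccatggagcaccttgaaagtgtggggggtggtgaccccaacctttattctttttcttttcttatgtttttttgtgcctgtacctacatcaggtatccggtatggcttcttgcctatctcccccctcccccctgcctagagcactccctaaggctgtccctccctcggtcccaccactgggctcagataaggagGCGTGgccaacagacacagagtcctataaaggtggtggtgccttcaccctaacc
Cyp1b1, chr17:79715062-79715311, minus strand: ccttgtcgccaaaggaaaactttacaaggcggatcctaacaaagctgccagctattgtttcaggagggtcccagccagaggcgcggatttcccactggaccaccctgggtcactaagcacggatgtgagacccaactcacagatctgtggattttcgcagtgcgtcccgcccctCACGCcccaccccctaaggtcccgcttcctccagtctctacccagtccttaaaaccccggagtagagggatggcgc
Ahrr, chr13:74292332-74292581, minus strand: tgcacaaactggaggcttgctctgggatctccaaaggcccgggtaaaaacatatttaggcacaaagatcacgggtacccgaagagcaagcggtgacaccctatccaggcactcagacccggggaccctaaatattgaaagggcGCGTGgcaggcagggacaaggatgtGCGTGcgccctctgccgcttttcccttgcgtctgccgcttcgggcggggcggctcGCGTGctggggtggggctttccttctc
Cyp1a1 had 1 core, from 54 to 50 bases before the start, and Cyp1b1 had 1 core on the opposite strand, from 76 to 72 bases before it. Ahrr had 3, and the one nearest the start, from 27 to 23 bases before it, was part of the longer form. Tiparp also had 1 core, while Cyp1a2 and Nqo1 had none in this window. DNA farther from the start was not searched, so elements of any of these genes that lie there, Cyp1a1 included, would be missed. A match is a stretch of letters and was not shown to be bound in these cells.

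The receptor gene itself was abundant and was slightly lower after PNX. Ahr (chromosome 12, 35497979 to 35534989, mm10) had 10985 and 10727 normalized counts in sham ECs against 9051 and 8783 after PNX. Both post-PNX libraries lay below both sham libraries. The means were 10856 ± 183 and 8917 ± 189 (SD, n = 2 each), a log2 fold change of -0.28 (standard error 0.022). When counts were scaled to 10 endothelial marker genes instead of by TMM, this value was -0.07, since that scaling raised the median log2 fold change of all genes by 0.22. In bulk RNA, fewer cells that express a gene and less RNA per cell cannot be told apart, here and for all genes below.

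Ahrr (chromosome 13, 74211118 to 74292331), the repressor, had few counts in ECs of both groups, though above the floor of 3. Its raw counts were 22 and 23 in sham and 23 and 23 after PNX. Normalized to library size, these were 19.9 and 23.4 in sham and 22.6 and 25.6 after PNX, and the groups overlapped. The log2 fold change of 0.15 was smaller than its standard error of 0.32, so a difference was not detectable at this depth.

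Tiparp (chromosome 3, 65528447 to 65555518) encodes a mono-ADP-ribosyltransferase that marks AHR for breakdown and is among the first genes to respond to AHR ligands. It had 2927 and 2773 normalized counts in sham and 3027 and 3031 after PNX. The post-PNX libraries were both above the sham libraries, but by less than the gap between the sham libraries. The log2 fold change was 0.09 (standard error 0.033), and it was 0.30 under the endothelial scaling. Ahr and Tiparp each overlap an exon of 1 other gene (Gm48236 and 4931440P22Rik in GENCODE), and the sources used here do not state whether reads were counted by strand.

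Among the enzymes, Cyp1a1 showed the strongest decrease and Cyp1b1 the strongest increase. Both encode cytochrome P450 monooxygenases that oxidize polycyclic aromatic compounds, estradiol and fatty acids, and CYP1B1 is also known in stromal and perivascular cells. Cyp1a1 (chromosome 9, 57687928 to 57703824) had 1276 and 1239 normalized counts in sham and 347.9 and 363.2 after PNX. The post-PNX libraries were far below the sham libraries, and the libraries of each group were close to each other. The means of 1257 ± 26.8 and 356 ± 10.9 (SD, n = 2 each) gave a level 3.54-fold lower in post-PNX ECs (log2 fold change -1.82, standard error 0.061). Of the 16208 genes tested, 23 had a lower log2 fold change. Cyp1a1 has 2 transcripts in the tables, with 1409 and 1407 raw counts in the first sham library and 354 and 353 in the first post-PNX library. They hold almost the same reads and cannot be separated.

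Cyp1b1 (chromosome 17, 79706940 to 79715061) had 154.0 and 136.6 normalized counts in sham and 979.7 and 963.8 after PNX. Every post-PNX value was above every sham value. The means of 145 ± 12.3 and 972 ± 11.2 (SD, n = 2 each) gave a 6.66-fold higher level (log2 fold change 2.74, standard error 0.080). A higher log2 fold change was found for 192 of the genes tested.

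Cyp1a2 (chromosome 9, 57676937 to 57683655) encodes the related liver enzyme. It lies next to Cyp1a1, 4272 bases away and on the other strand. Its raw counts were 2 and 0 in sham and 0 and 1 after PNX, so that it was at or under the floor of 3 counts in all 4 libraries. It did not pass the filter on low counts, and no fold change is given.

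**Figure D1:**
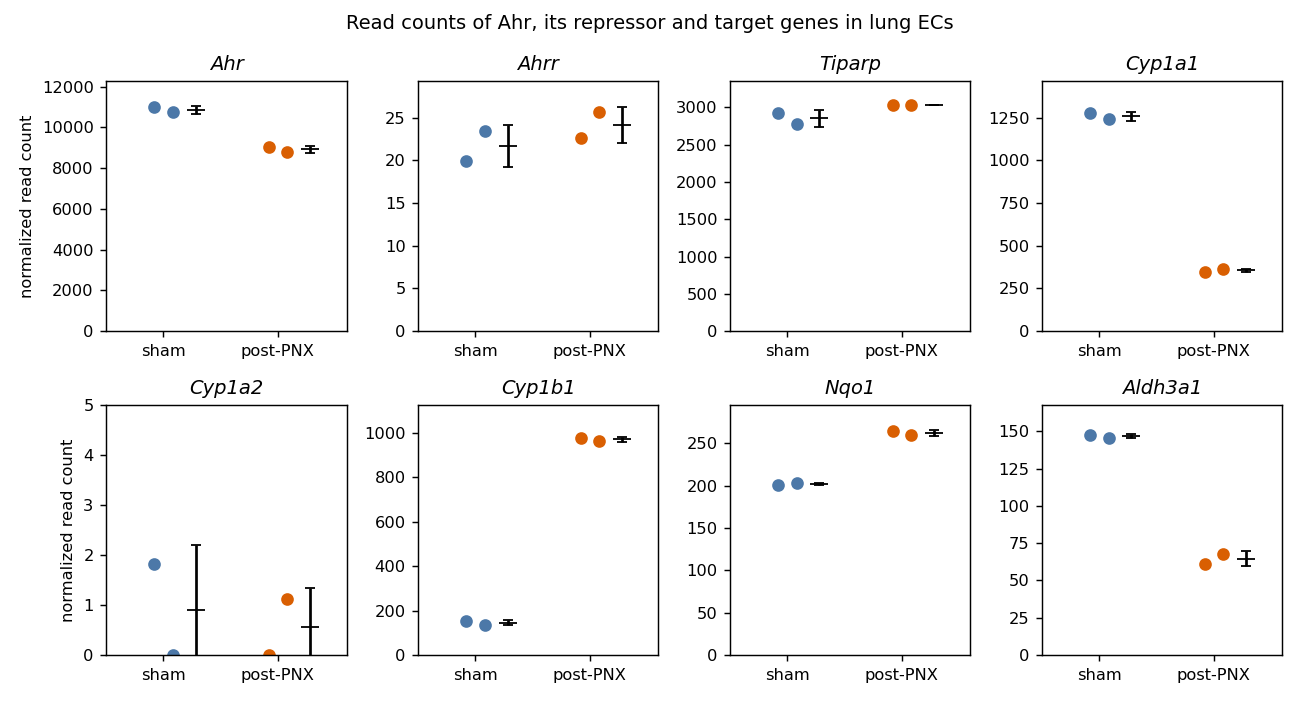
Normalized read counts of the 8 genes in each library (points, sham in blue and post-PNX in orange), with the mean and SD of 2 libraries as black bars and every axis starting at 0. The mean of Cyp1a1 is 1257 in sham and 356 after PNX and that of Cyp1b1 145 and 972, while Ahrr lies between 19.9 and 25.6 and Cyp1a2 at or under 1.81.

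The remaining enzymes differed in opposite directions as well. Nqo1 (chromosome 8, 107388225 to 107403205) encodes a quinone reductase that is controlled by AHR and by NRF2, the factor of the oxidative stress response. It had 201.1 and 202.9 normalized counts in sham and 264.3 and 259.6 after PNX. The groups did not overlap, and the log2 fold change was 0.38 (standard error 0.10), or 0.59 under the endothelial scaling. Aldh3a1 (chromosome 11, 61208510 to 61218418) encodes an aldehyde dehydrogenase that removes lipid aldehydes and is known for its high level in cornea and in airway epithelium. It had 147.7 and 145.8 normalized counts in sham and 60.9 and 68.0 after PNX, which again did not overlap. The log2 fold change was -1.19 (standard error 0.16), a 2.28-fold lower level, and it was -0.97 under the endothelial scaling. Both transcripts of Aldh3a1 in the tables had the same counts in every library, 163 and 143 in sham and 62 and 61 after PNX.

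Compared by FPKM, which is scaled to transcript length and so allows different genes to be set side by side, Ahr was the most abundant of the 8 genes in both groups, with 26.8 ± 0.442 FPKM in sham and 22.2 ± 0.510 FPKM after PNX (SD, n = 2 each). Tiparp was second in both groups, at 9.32 ± 0.353 FPKM and 9.96 ± 0.00808 FPKM. In sham ECs Cyp1a1 was the third, with 6.61 and 6.42 FPKM, followed by Nqo1 (mean 1.77 FPKM), Aldh3a1 (1.25 FPKM), Cyp1b1 (0.385 FPKM), Ahrr (0.0623 FPKM) and Cyp1a2. After PNX Cyp1b1 was the third, with 2.61 and 2.57 FPKM, before Nqo1 (mean 2.31 FPKM), Cyp1a1 (1.85 FPKM), Aldh3a1 (0.552 FPKM), Ahrr (0.0696 FPKM) and Cyp1a2. No neighbours in either order overlapped between their libraries, and the closest by ratio were Cyp1b1 and Nqo1 after PNX, where the lowest value of the first was 2.57 FPKM and the highest of the second 2.33 FPKM. With 2 libraries this says only that the order was the same in both. The FPKM of Cyp1a1 was 16.2 and 17.7 times that of Cyp1b1 in the sham libraries. After PNX it was 0.695 and 0.737 times that of Cyp1b1, so that Cyp1a1 was the higher of both in sham and Cyp1b1 after PNX. The ratio of Ahr to Cyp1a1 went from 4.11 and 4.13 in sham to 12.4 and 11.5 after PNX. A ratio within a library does not depend on the scaling between libraries.

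**Figure D2:**
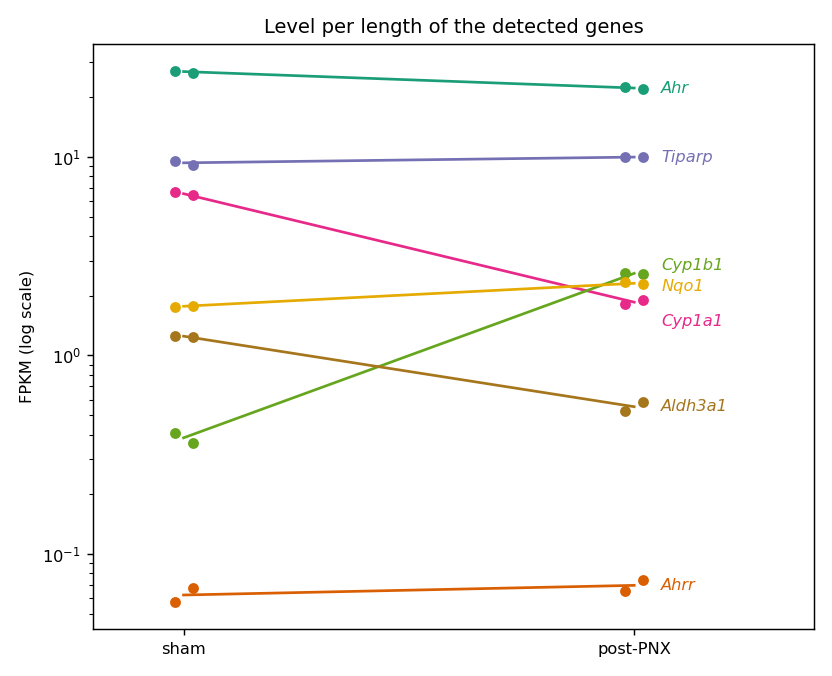
FPKM (log axis) of 7 genes in sham and post-PNX ECs, where points are libraries and lines join the group means. Cyp1a2, listed at 0 in a library of each group, is left out. The lines of Cyp1a1 (6.52 to 1.85) and Cyp1b1 (0.385 to 2.59) cross, while those of Ahr and Tiparp stay on top.

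The study called genes that differed by more than 1 on the log2 scale with an adjusted p below 0.01. By this rule 3 of the 7 genes tested were called (edgeR), Cyp1a1 and Aldh3a1 lower and Cyp1b1 higher. Over all genes tested this rule called 7.56%, with 5.9% higher and 1.66% lower. With the adjusted p alone, 5 of the 7 were called (Ahr and Nqo1 in addition), against 57.1% of all genes. The libraries of the groups did not overlap in 6 of the 7, all but Ahrr, against 81.2% of all genes. As the set was chosen with this comparison in view, nothing is drawn from these shares. The 7 genes had a median log2 fold change of 0.0862, and all genes one of 0.0012. The share of higher genes among all those called was 78.1%, and 92.7% under the endothelial scaling.

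The genes most like the members over the 4 libraries were sought among 13401 others whose normalized counts averaged 100 or more, by the distance between their log2 values after centring each gene. Those nearest to Cyp1a1 were Ptpru, a receptor tyrosine phosphatase, with a distance of 0.0434, Igfbp3, a binding protein of insulin-like growth factors, with 0.131, and Npr3, the clearance receptor of natriuretic peptides, with 0.164. Ptpru had 5854 ± 40.2 and 1661 ± 67.7 normalized counts (SD, n = 2 each). The nearest to Cyp1b1 were Vcan, a matrix proteoglycan (distance 0.0347), Folr2, a folate receptor of macrophages (0.0458), and Foxm1, a factor of the cell cycle (0.0469). Vcan had 337 ± 22.8 and 2248 ± 11.2 normalized counts (SD, n = 2 each). For Ahr, whose own difference was small, they were Otud3, Kdm7a and Elovl5, with distances of 0.00720, 0.00990 and 0.0117. With 4 libraries in 2 groups, a small distance means little more than a like fold change.

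Around the receptor, 1 of the partner genes rose past both thresholds and the chaperone genes were slightly higher. In the list of 11 genes of the receptor complex (ARNT proteins, chaperones and coactivators), all 11 were tested and 1 was called. It was Arnt2, the ARNT paralog known from the nervous system, which had 21.7 and 29.6 normalized counts in sham and 90.4 and 74.7 after PNX (log2 fold change 1.70, standard error 0.23, adjusted p = 1.9e-09, edgeR). It lost the call when edgeR tested for a change beyond 2-fold itself (adjusted p = 0.0103). Arnt, the usual partner, had 4390 and 4508 in sham and 4251 and 4221 after PNX (log2 fold change -0.07, adjusted p = 0.0241, edgeR), and the sign turned under the endothelial scaling (0.15). The HSP90 genes were higher by less than 2-fold, with log2 fold changes of 0.42 for Hsp90aa1 (adjusted p = 5.6e-29, edgeR) and 0.20 for Hsp90ab1 (adjusted p = 1.0e-16). At an adjusted p under 0.01, 4 of the 11 were higher and 3 lower, and the median log2 fold change was 0.01. Over all genes tested, 57.1% reached this p and 7.56% passed both thresholds.

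Other genes that are known to respond to AHR ligands did not move in 1 direction. Of 12, 11 were tested, and 1 rose and 1 fell past both thresholds. At an adjusted p under 0.01 whatever the fold, 6 were higher and 4 lower (median 0.18). This p was reached by 57.1% of all genes tested. Serpinb2, an inhibitor of plasminogen activators that macrophages and mesothelial cells also make, rose from 106 and 104 normalized counts to 1667 and 1647 (log2 fold change 3.98, standard error 0.074, adjusted p = 4.4e-49, edgeR). Gsta2, a glutathione transferase, fell from 34.4 and 30.6 to 9.83 and 16.7 (log2 fold change -1.31, adjusted p = 5.3e-04, edgeR). This call rested on few counts and was lost without the first sham library (adjusted p = 0.0119), without the first post-PNX library (adjusted p = 0.0569) and with DESeq2 (adjusted p = 0.0343). Its near copy Gsta1 was at the floor, and reads could have been split between them. Among the genes with the most counts, Xdh, which makes uric acid, differed by -0.51 on the log2 scale (adjusted p = 1.9e-32, edgeR), Selenbp1 by -0.82 (adjusted p = 1.5e-39), and Nfe2l2, which encodes NRF2, by -0.04 (adjusted p = 0.0812), which turned to 0.17 under the endothelial scaling. Ugt1a6a, a glucuronidation enzyme of the classical AHR gene battery that was named after its values were seen, had 1143 and 1166 normalized counts in sham and 2242 and 2204 after PNX (log2 fold change 0.95, adjusted p = 1.3e-29, edgeR). It fell short of the fold threshold, passed it under the endothelial scaling (1.16), and shares exons with the other Ugt1a genes.

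The NRF2 list was taken because Nqo1 answers to both factors. Of its 12 genes 1 was called, 4 were higher and 4 lower at an adjusted p under 0.01, and the median was 0.01. Over all genes tested, 57.1% reached this p. Hmox1, heme oxygenase, rose from 1960 and 1944 to 5775 and 5674 normalized counts (log2 fold change 1.55, standard error 0.031, adjusted p = 7.9e-48, edgeR). In contrast, Gstm1 and Ephx1, which detoxify electrophiles, had log2 fold changes of -0.41 (adjusted p = 2.8e-26, edgeR) and -0.69 (adjusted p = 2.7e-35). Tryptophan breakdown is a source of AHR ligands in the body. Of its 10 genes, 9 were tested, 2 were higher and 3 lower at an adjusted p under 0.01 (median -0.16), and 1 was called. Tdo2, tryptophan dioxygenase, rose from 28.1 and 31.6 to 80.6 and 110.3 normalized counts (log2 fold change 1.67, standard error 0.21, adjusted p = 6.6e-10, edgeR). The genes of this list with the most counts, Kyat1, Kmo and Kynu, had log2 fold changes of -0.42 (adjusted p = 5.7e-06, edgeR), -0.08 (adjusted p = 0.43) and 0.16 (adjusted p = 0.0981), and Kmo turned to 0.14 under the endothelial scaling.

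Among the bHLH-PAS relatives of AHR, 15 of 17 were tested, and Arnt2 was again the single call. Epas1, which encodes the hypoxia factor of endothelium and had the most counts of the list, went from 259878 and 261400 normalized counts to 169950 and 174131 (log2 fold change -0.60, standard error 0.015, adjusted p = 7.9e-43, edgeR). Hif1a differed by 0.42 on the log2 scale (adjusted p = 1.5e-21, edgeR) and Ncoa3, a coactivator, by -0.49 (adjusted p = 3.6e-27). The median of the list was -0.07.

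Of 9 other P450 genes of the lung, all were tested and 5 fell past both thresholds. At an adjusted p under 0.01 whatever the fold, 1 was higher and 7 lower, and the median log2 fold change was -1.08. Over all genes tested, 57.1% reached this p and 1.66% were lower past both thresholds. Cyp2f2, an enzyme of club cells, went from 19061 and 18614 normalized counts to 7993 and 7866 (log2 fold change -1.25, standard error 0.021, adjusted p = 2.9e-51, edgeR). Cyp4b1, with the most counts of the list, fell with a log2 fold change of -1.08 (adjusted p = 5.3e-51, edgeR), Cyp2b10 with -1.09 (adjusted p = 8.0e-42) and Cyp2a5 with -1.54 (adjusted p = 5.5e-26). Under the endothelial scaling 2 of these 9 genes were called lower and 1 higher. Cyp4b1 (-0.86), Cyp2b10 (-0.87) and Cyp4a12b (adjusted p = 0.0223, edgeR) then lost their call, and Cyp2e1, named after its values were seen, gained one with a log2 fold change of 1.13 (0.92 by TMM). The fifth, Cyp4a12b, had 14.5 and 13.3 against 4.91 and 4.46 normalized counts and lost the call without any single library (adjusted p from 0.0303 to 0.0851, edgeR). Cyp2a5 and Cyp4a12b have near-identical copies among which reads could have been divided. Por, the reductase that hands electrons to Cyp1a1 and all microsomal P450 enzymes, had 9905 and 10109 normalized counts in sham and 7113 and 7149 after PNX (log2 fold change -0.49, adjusted p = 3.7e-28, edgeR). Cyb5r3, with the most counts of the electron partners, differed by 0.05 on the log2 scale (adjusted p = 0.0173, edgeR) and Cyb5b by -0.12 (adjusted p = 4.6e-06). Of the 5 genes of electron partners, 1 was higher and 3 lower at an adjusted p under 0.01, with log2 fold changes between -0.49 and 0.08. Over all 70 genes of these lists, each taken once, 66 were tested, 4 rose and 6 fell past both thresholds, with a median of -0.06.

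**Figure D3:**
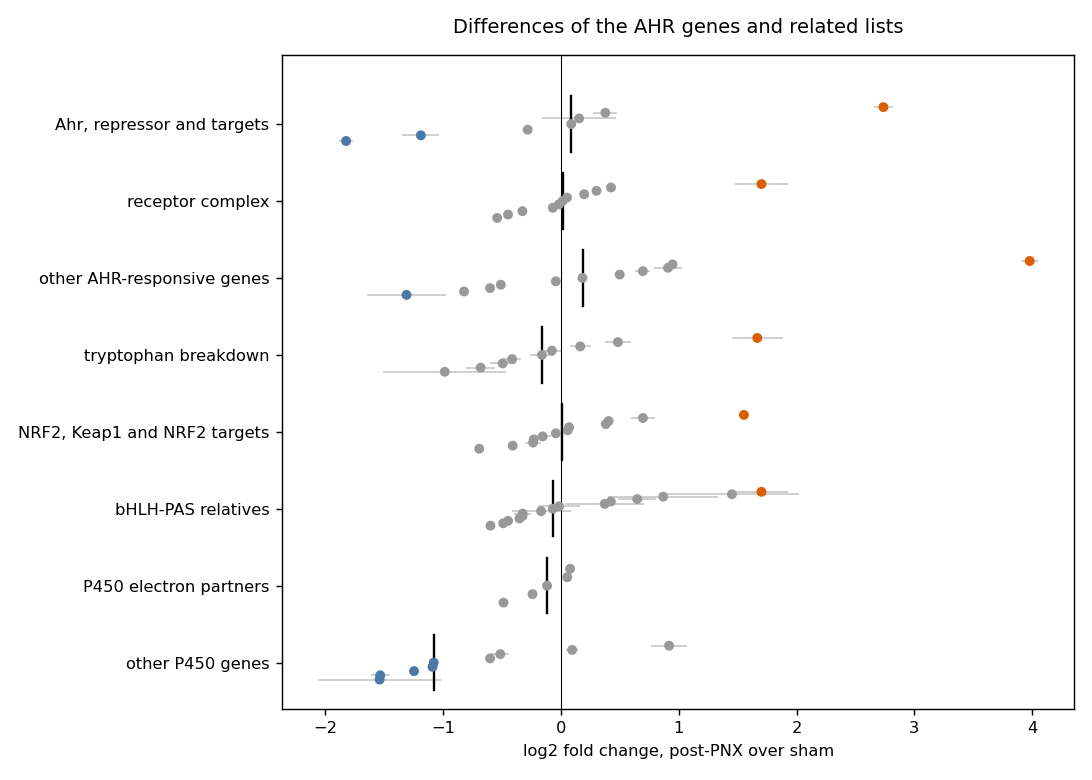
Log2 fold change (post-PNX over sham) of each gene tested in the AHR set and 7 related lists, with the standard error in grey, genes called higher in orange, lower in blue and others in grey, and the median of each list as a black line. The AHR set spreads from -1.82 (Cyp1a1) to 2.74 (Cyp1b1), and the other P450 genes lie mostly to the left of 0 with a median of -1.08.

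The CD31-selected fraction contained RNA of other lung cells, and markers of these cells differed between the groups together with the genes above. None of the 6 club cell markers was at 0. Their summed level lay between 175146 and 175851 normalized counts in the sham libraries and between 81999 and 84871 after PNX. All 6 were lower at an adjusted p under 0.01 (edgeR), with a median log2 fold change of -1.03, beside -1.19 for Aldh3a1 and -1.82 for Cyp1a1. Markers of other epithelial cells were lower as well at an adjusted p under 0.01 (edgeR), with 6 of 6 for alveolar type 2 cells (median -0.64), 4 of 4 for alveolar type 1 cells (median -0.52) and 4 of 4 for ciliated cells (median -0.80). Past both thresholds, 4 club cell markers and 1 ciliated cell marker were lower, and 0 of the alveolar ones. An adjusted p under 0.01 was reached by 57.1% of all genes tested. Of 4 basal cell markers, which had few counts, 2 were called lower and 1 higher. For 5 markers of general capillary ECs the sums were 210767 to 211662 in sham and 134881 to 135684 after PNX, with a median of -0.64. The medians were -0.40 for aerocyte capillary, -0.11 for arterial, 0.13 for venous and 0.20 for lymphatic EC markers. These lists were split at an adjusted p under 0.01 (edgeR). Aerocyte and arterial markers had 2 higher and 3 lower each, and venous ones 3 higher and 2 lower. Of the 4 lymphatic markers tested, 2 were higher and 1 was lower, the latter past both thresholds. For the 10 endothelial markers the sums were 466658 to 471142 in sham and 402464 to 404426 after PNX, with a median of -0.22, and 8 of the 10 were lower at an adjusted p under 0.01.

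Beside the higher Cyp1b1, 5 of 7 fibroblast markers rose past both thresholds (edgeR). Their sum went from between 61429 and 62019 in sham to between 223349 and 224945 after PNX, with a median log2 fold change of 2.28, beside 2.74 for Cyp1b1. The fibroblast markers Pdgfra and Tcf21, named after their values were seen, did not rise, with log2 fold changes of -0.23 (adjusted p = 2.4e-15, edgeR) and 0.02 (adjusted p = 0.677). Macrophage markers summed to between 158649 and 159206 in sham and between 213965 and 214391 after PNX, and 5 of 8 rose past both thresholds. All 8 were higher at an adjusted p under 0.01 (edgeR). All 4 mesothelial markers rose, from sums of 5405 and 5555 to 16131 and 16272. Of the 6 markers of smooth muscle cells and pericytes 1 rose past both thresholds, with a median of 0.40. At an adjusted p under 0.01 whatever the fold, 5 of these 6 were higher (edgeR). Markers of T cells (5 of 5, median -0.69), B cells (4 of 4, median -0.82) and type 17 and innate lymphoid cells, which need AHR (3 of the 4 tested, median -0.56), were lower at an adjusted p under 0.01 (edgeR). Past both thresholds, 0 of these lymphoid markers were lower, and 57.1% of all genes tested had an adjusted p under 0.01. Early response genes of tissue dissociation had a median of -0.12. The part of any of these cells in the levels of Cyp1a1, Cyp1b1 and Aldh3a1 was not tested.

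**Figure D4:**
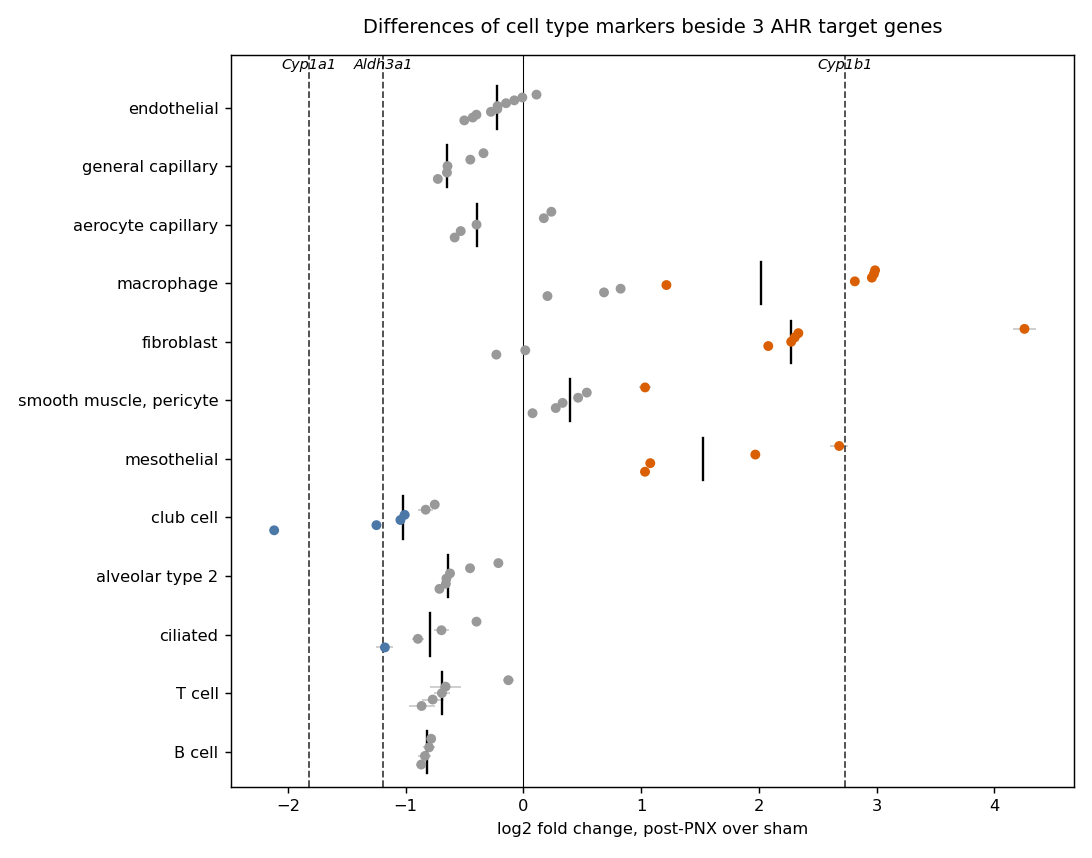
Log2 fold change (post-PNX over sham) of the cell type markers of 12 lists, coloured as called higher (orange), lower (blue) or neither (grey), with standard errors in grey and list medians as black lines. Dashed lines give Cyp1a1 (-1.82), Aldh3a1 (-1.19) and Cyp1b1 (2.74). The line of Cyp1a1 lies left of all markers of these 12 lists but 1 club cell marker, and that of Cyp1b1 falls within the range of the fibroblast and macrophage markers and to the right of the mesothelial ones.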

How the data were processed

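RNA of CD31-selected lung ECs was measured in 2 sham and 2 post-PNX libraries. Per the study's methods, a stranded kit for mRNA was used and reads were aligned to mm10, and the submitters' processing notes name STAR. The counting program and its strand setting are not given in the sources used here. The authors deposited, per library, whole-number counts, FPKM and TPM values for 33068 RefSeq transcripts. The FPKM values, scaled by the authors to transcript length and library total, served to compare levels between genes, and the deposited TPM values were not used. Since reads shared by transcripts were counted for each, each gene was represented by its transcript of highest total count, and its counts summed to between 41367438 and 50952879 per library.

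Counts were analysed with edgeR 4.0.16 in R 4.3.3 (filterByExpr, TMM, quasi-likelihood test on 16208 genes, Benjamini-Hochberg adjustment over all of them). Standard errors were derived from the F statistic and the log2 fold change. Calls needed a difference above 1 on the log2 scale together with an adjusted p below 0.01. The genes and lists were chosen with earlier results of these data known. Genes named in the text by rule are the 8 members, the called genes and up to 3 others with the most counts in each list (marker lists are given by their counts and medians), CD31, VE-cadherin and CD45, and the 3 nearest genes of Cyp1a1, Cyp1b1 and Ahr. Ugt1a6a, Gsta1, Cyp2e1, Pdgfra, Tcf21, Npas3 and Sim2 were named after their values were seen. Symbols of 3 genes were matched through older names. On simulated counts for 16208 genes, 59 of 64 genes changed by 1.5 on the log2 scale were called, 57 of 58 changed by 2, 77 of 78 changed by 3, and 0 of 16008 unchanged ones. Far fewer genes were changed there than differed in the data, both directions were equally likely, and the spread was that of these same libraries. The simulation therefore says nothing about variation between animals. Alternatives were other scalings, filters, thresholds and tests (DESeq2 1.42.0, glmTreat), summed transcripts, the replicate number as a block and each library left out. The planned comparison of protein sequences was not made here.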

Additional observations from a re-analysis of the deposited data

How the results depend on the processing

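Cyp1a1 and Cyp1b1 kept their direction and call under all 15 alternatives, with log2 fold changes from -1.85 to -1.61 and from 2.66 to 2.95. Aldh3a1 lost its call under the endothelial scaling (-0.97) and under glmTreat. The replicate numbers pair no animals. Same-numbered libraries deviated with a correlation of 0.0305 over all genes, and the replicate block changed none of the calls of the 73 single genes given here. The number of genes called among all tested was 1226, 643 (604 higher, 39 lower) with glmTreat and 9258 with no fold threshold.

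Without the fold threshold the calls were 5 of 7 tested genes in the AHR set, 7 of 11 in the receptor complex and 10 of 11 in the other responsive genes. They were 5 of 9 in tryptophan breakdown, 8 of 12 in NRF2 and 9 of 15 in the bHLH-PAS relatives. The electron partners had 4 of 5 and the other P450 genes 8 of 9. Over all genes tested the share was 57.1%. With glmTreat the receptor complex and the bHLH-PAS list had 0 calls (Arnt2 adjusted p = 0.0103 by glmTreat), against 1 call each with DESeq2, and the other responsive genes had 1. These responsive genes had 4 calls under the endothelial scaling, 1 with a mean of at least 50 counts and 1 with DESeq2, and between 1 and 2 when each library was left out. The other P450 genes had 3 calls under the endothelial scaling, 1 higher and 2 lower. The bHLH-PAS list had 2 calls with no filter on low counts and 2 at an adjusted p under 0.05, and between 1 and 2 when each library was left out, with 2 without the first sham library, where Npas3 was called (log2 fold change 3.40), and 2 without the second, where Sim2 (0, 1, 9 and 9 counts) was called. Genes with few counts, such as Ahrr, Cyp1a2 and Gsta1, are limited by depth.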
